A study of Sus scrofa with 36 samples.

Results

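Haloperidol and bromocriptine were compared in the mammary glands of estrogen-treated pigs, using the 4 arrays labelled haloperidol+estrogen (HE) and the 4 labelled bromocriptine+estrogen (BE), 8 of the 36 arrays in the series. These arrays were chosen by treatment label alone. All were female Yucatan miniature pigs aged 5 months, ovariectomized and then given bromocriptine for 8 days. For the last 5 days the HE pigs received haloperidol with estrogen and the BE pigs bromocriptine with estrogen. The other groups used below had the same surgery and first phase. HEP and BEP pigs received progesterone in addition to estrogen with haloperidol or with bromocriptine, and H and B pigs received haloperidol or bromocriptine without a steroid. Sham-operated pigs had intact ovaries and were given saline over 13 days. Each group held 4 pigs, 1 array each, and every pig received BrdU before the end. The comparison sets a dopamine antagonist against a dopamine agonist, with no estrogen-treated group free of both drugs, and prolactin itself was not analysed here.

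Dopamine from the hypothalamus holds back prolactin secretion by the pituitary. Bromocriptine, a D2 receptor agonist, lowers prolactin in blood, and haloperidol, a D2 receptor antagonist, raises it. In mammary epithelium prolactin binds its receptor, JAK2 phosphorylates the transcription factors STAT5A and STAT5B, and these act on milk protein genes. Estrogen acts on the same gland through its own receptor and drives duct growth.

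The deposited values are RMA probe set levels, read as log2, for 20792 probe sets that represent 6360 named genes. They ran from 1.552 to 13.74, with array medians between 7.83 and 7.912 and lower quartiles between 5.901 and 6.091. Correlations between 2 arrays among the HE and BE arrays ran from 0.9188 to 0.9794, and all 8 arrays correlated better on average with their own group than with the other. HE animal A lay nearest to the other group, with a mean correlation of 0.9621 within HE and 0.9543 with BE. Epithelial markers of the mammary gland were high on these arrays. The keratin KRT8 lay between 11.96 and 12.59 in HE glands and between 12.51 and 12.79 in BE glands, and the adhesion protein EPCAM between 12.05 and 12.31 in HE glands and between 11.48 and 11.97 in BE glands. Neither passed the test, nor did KRT18 (difference 0.17) or the cadherin CDH1 (-0.23). The glands were bulk tissue, so fewer cells of a type and less RNA per cell cannot be told apart in any result.

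Expression differed widely between HE and BE glands. Of the 6360 genes, 757 (11.9%) had an adjusted p under 0.05, 495 higher (7.78%) and 262 lower (4.12%) in HE than in BE. Among probe sets 2184 (10.5%) were called, 1135 higher (5.46%) and 1049 lower (5.05%), and of these 640 were higher and 668 lower by at least 2-fold. The median difference of all genes was 0.057. Counts in the gene lists below are to be read beside the shares of all genes, 7.78% higher and 4.12% lower. Without regard to the test, all 4 HE values lay above all 4 BE values in 798 genes (12.5%) and below them in 478 (7.52%). The number of called probe sets changed when 1 animal was left out. It was 1454, 1300 and 1406 without BE animals A, B and D, and 1396, 1401 and 1368 without HE animals B, C and D. Without BE animal C it was 2290 and without HE animal A 2689.

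**Figure D1:**
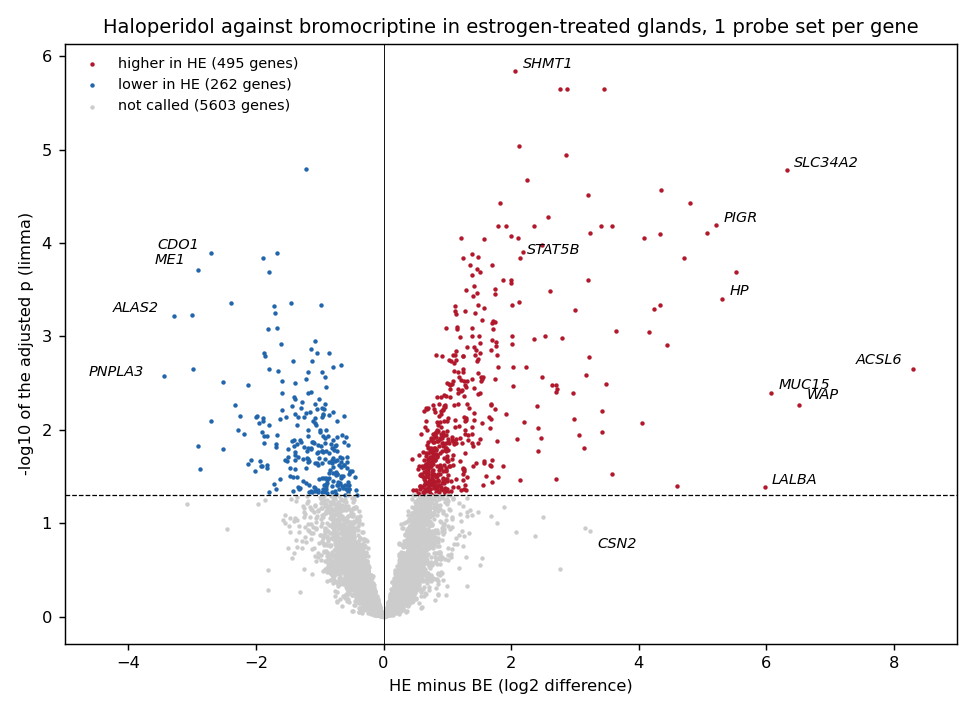
Each point is 1 of 6360 genes, placed by its HE minus BE difference (log2, horizontal axis) and by the -log10 of its limma adjusted p (vertical axis), with the dashed line at an adjusted p of 0.05. Red points are the 495 genes called higher in HE, blue points the 262 called lower and grey points the rest. The higher genes extend to 8.31 and the lower genes to -3.44.

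Milk proteins had the highest median difference of the 33 gene lists. Of 15 measured members 9 were higher and 1 lower, and their median difference was 3.16, beside 0.057 for all genes. The mean level of the list lay between 11.36 and 11.78 in the HE animals and between 7.24 and 9.53 in the BE animals. WAP, the whey acidic protein, was 12.69, 13.22, 13.11 and 13.03 in HE animals A to D, against 6.30, 5.99, 8.71 and 4.99 in BE animals A to D. It was 91.5-fold higher (difference 6.52 ± 1.51 SE, adjusted p = 0.00541). LALBA, or alpha-lactalbumin, the subunit that turns galactosyltransferase into lactose synthase, was 12.44, 12.77, 12.60 and 12.67 in HE against 6.99, 5.51, 9.60 and 4.48 in BE (difference 5.97 ± 1.91 SE, adjusted p = 0.0414). CSN3, kappa-casein, which holds casein micelles in solution, was 13.07, 13.17, 13.09 and 12.99 in HE against 9.27, 7.96, 10.84 and 5.88 in BE (difference 4.59 ± 1.46 SE, adjusted p = 0.0397). In all 3 genes the HE animals lay close together near the top of the scale, while the BE animals were spread over several log2 units with animal C highest and animal D lowest. The calls of LALBA and CSN3 were each lost in 7 of the 8 fits that left out 1 animal, with adjusted p up to 0.124 and 0.147.

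Other caseins had the same layout without passing the test. CSN2, beta-casein, was 12.28, 12.31, 12.15 and 12.35 in HE animals, against 9.96, 9.01, 11.08 and 6.06 in BE animals (difference 3.25 ± 1.36 SE, adjusted p = 0.122). CSN1S1, alpha-S1-casein, was 12.53, 12.61, 12.43 and 12.51 in HE, against 9.65, 9.43, 11.24 and 7.12 in BE (3.16 ± 1.30 SE, adjusted p = 0.113), and CSN1S2 differed by 2.77 (adjusted p = 0.308). For both CSN2 and CSN1S1 the lowest HE value was above the highest BE value. Fitted on the 8 HE and BE arrays alone, these 3 caseins had adjusted p of 0.0325, 0.0151 and 0.0263. Across the 36 arrays the model pools the spread of all 9 groups, and the SD of CSN2 was 0.09 in HE, 2.15 in BE and 4.02 in B.

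Several other secreted or membrane proteins of milk were called higher. MUC15, a mucin of the milk fat globule membrane, was 11.76, 12.11, 12.11 and 11.24 in HE animals, against 5.93, 5.88, 6.37 and 4.73 in BE animals (67.7-fold, adjusted p = 0.00404). MUC1, another mucin of that membrane, was 21.7-fold higher, MFGE8, the milk fat globule protein lactadherin, 5.97-fold, and PAEP, a lipocalin of the beta-lactoglobulin family, 8.38-fold. The antibacterial proteins lactotransferrin (LTF) and lactoperoxidase (LPO) were 6.25-fold and 9.22-fold higher. The BE mean of LPO, 3.40, lay under the arrays' lower quartiles, and HE animal B, at 8.12, stood above the other HE animals at 6.03 to 6.18. The size of the LPO fold is therefore uncertain. The called member on the other side was PTHLH, the parathyroid hormone-like hormone that the lactating gland releases in other mammals, which fell by 1.36 ± 0.36 SE (adjusted p = 0.0143). The call of PAEP was lost in 2 of 8 fits without 1 animal and that of PTHLH in 1.

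**Figure D2:**
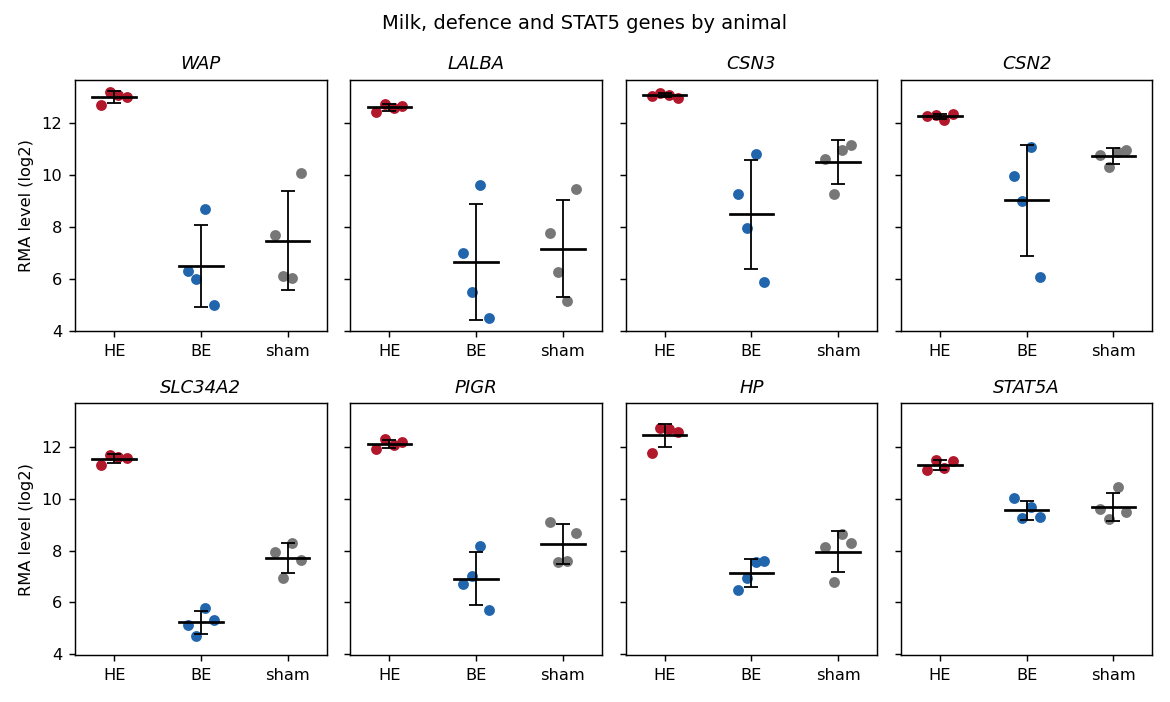
RMA level (log2, vertical axis) of 8 genes in each animal of HE, BE and sham (horizontal axis, 4 points per group), with the group mean as a line and the SD as an error bar. HE points lie above all BE points in every panel, and BE animals are spread widely for the 4 milk protein genes in the upper row.

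In the prolactin and STAT5 list 3 of 15 measured members were higher and 1 lower, with a median of -0.01. Among all genes 7.78% were higher and 4.12% lower. STAT5B was 10.03, 10.56, 9.94 and 10.32 in HE animals, against 8.04, 8.11, 8.19 and 7.95 in BE animals (4.40-fold, difference 2.14 ± 0.34 SE, adjusted p = 0.000144). STAT5A was 11.11, 11.50, 11.18 and 11.47 in HE, against 10.02, 9.25, 9.67 and 9.30 in BE (3.37-fold, 1.75 ± 0.30 SE, adjusted p = 0.000309). Both transcription factors were separated between the groups by about 1 log2 unit or more. EHF, an epithelial ETS factor, was 3.65-fold higher (adjusted p = 0.0246), a call lost in 6 of 8 fits without 1 animal. JAK2, the kinase upstream of STAT5, was 7.26, 7.39, 6.89 and 5.69 in HE animals, against 8.01, 8.51, 7.35 and 8.09 in BE animals (difference -1.18 ± 0.34 SE, adjusted p = 0.0223), and the groups overlapped. Its call was lost in the fit on the HE and BE arrays alone and in 4 of 8 fits without 1 animal, with adjusted p up to 0.136. The prolactin receptor PRLR and the STAT5-linked genes SOCS2 and ELF5 were not analysed here.

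Ion and mineral transport genes were changed in both directions, with 6 of 16 measured members higher and 3 lower (median 0.27). SLC34A2, a sodium phosphate cotransporter, was 11.31, 11.69, 11.63 and 11.60 in HE animals, against 5.13, 4.71, 5.79 and 5.31 in BE animals, an 80.0-fold rise (adjusted p = 1.67e-05). SLC5A5, the sodium iodide symporter that brings iodide into milk, was 7.95, 8.44, 9.00 and 8.69 in HE, against 3.52, 3.82, 3.86 and 4.01 in BE (26.3-fold, adjusted p = 0.000146). These groups were separated by more than 3 log2 units. The store-operated calcium channel ORAI1 rose 5.77-fold, the calcium pump of the secretory pathway ATP2C2 4.04-fold, the calcium-activated potassium channel KCNN4 5.15-fold and the water channel AQP5 1.80-fold. STC1, or stanniocalcin, a regulator of calcium and phosphate, fell by 2.08, the potassium channel subunit KCNE3 by 1.47 and the water channel AQP1, a gene of endothelium, by 1.12. The calls of AQP1 and AQP5 were each lost in 6 of 8 fits without 1 animal, that of KCNE3 in 5 and that of STC1 in 3.

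Genes that supply sugar and amino acids were called in both directions. Of 13 lactose and glucose genes 3 were higher, LALBA among them, and 2 lower (median -0.04). The glucose transporter SLC2A1 was 11.37, 11.52, 11.63 and 11.60 in HE animals, against 10.62, 10.59, 11.29 and 10.60 in BE animals, 1.69-fold higher (adjusted p = 0.0205), and PGM2, a phosphoglucomutase, was 2.17-fold higher. The fructose transporter SLC2A5 was 7.52, 6.43, 8.17 and 7.20 in HE, against 10.72, 9.06, 10.38 and 11.13 in BE, and fell by 2.99 ± 0.62 SE (adjusted p = 0.00223), while SLC2A8 fell by 0.72. Of 18 amino acid genes 6 were higher and 1 lower (median 0.45). ARG2, the mitochondrial arginase, was 9.90, 10.28, 9.76 and 10.18 in HE animals, against 6.46, 6.27, 6.58 and 6.25 in BE animals, 12.5-fold higher (adjusted p = 0.000872). SHMT1, which moves carbon units from serine to folate, was 8.35, 8.28, 8.45 and 9.01 in HE, against 6.77, 6.33, 6.09 and 6.63 in BE, 4.20-fold higher (adjusted p = 1.45e-06). The amino acid transporters SLC6A14, SLC1A1 and SLC7A1 rose 8.87-fold, 3.44-fold and 1.65-fold, and asparagine synthetase (ASNS) 2.03-fold. The calls of SLC2A1 and SLC7A1 were each lost in 5 of 8 fits without 1 animal, that of SLC2A8 in 6 and that of SLC6A14 in 1. CDO1, which breaks down cysteine, was 8.59, 8.38, 8.54 and 7.84 in HE animals, against 11.23, 11.23, 10.53 and 11.16 in BE animals (difference -2.70 ± 0.42 SE, adjusted p = 0.000128).

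Lipid genes were called in both directions too, beside 7.78% higher and 4.12% lower among all genes. In the list of fatty acid and sterol synthesis 1 of 18 was higher and 4 lower (median -0.04), and in the list of fat uptake, triglyceride synthesis and droplets 4 of 19 were higher and 2 lower (median 0.03). ACSL6, an acyl-CoA synthetase outside both lists, had the largest difference of all genes, with 11.37, 11.56, 11.37 and 11.17 in HE animals and 2.31, 3.23, 4.67 and 2.04 in BE animals (316-fold, 8.31 ± 1.73 SE, adjusted p = 0.00224). GPAM, the acyltransferase that starts glycerolipid synthesis in mitochondria, was 7.89, 8.71, 8.35 and 8.44 in HE, against 5.23, 5.12, 4.98 and 5.11 in BE, 9.43-fold higher (adjusted p = 7.84e-05). PLIN2, the coat protein of milk fat droplets, rose 4.06-fold, the droplet protein PLIN3 2.43-fold, the acyl-CoA synthetase ACSL3 3.21-fold and the elongase ELOVL1 2.41-fold. For all 6 of these genes every HE animal lay above every BE animal, and the call of ELOVL1 was lost in 3 of 8 fits without 1 animal.

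Other lipid genes were called lower. PNPLA3, a lipase of lipid droplets, was 6.32, 6.27, 5.28 and 4.49 in HE animals, against 9.29, 6.98, 9.14 and 10.72 in BE animals (difference -3.44 ± 0.73 SE, adjusted p = 0.00269). ME1, malic enzyme, which makes NADPH for fatty acid synthesis, was 9.10, 8.07, 8.81 and 8.85 in HE, against 11.69, 10.99, 11.67 and 12.10 in BE (-2.90 ± 0.47 SE, adjusted p = 0.000193). ELOVL6, an elongase of long fatty acids, was 9.40, 9.09, 9.37 and 9.35 in HE, against 12.04, 11.10, 11.54 and 12.07 in BE (-2.39 ± 0.42 SE, adjusted p = 0.000436). The groups did not overlap for any of these 3. DGAT2, the last enzyme of triglyceride synthesis, fell by 2.28 and the acyl-CoA synthetase ACSL1 by 1.72. The desaturase SCD fell by 0.56 (adjusted p = 0.0468), a call lost in all 8 fits without 1 animal, and fatty acid synthase (FASN) differed by -0.66 (adjusted p = 0.396).

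Adipocyte markers were measured beside these genes. Of 13 measured, 4 were lower and 0 higher, with a median of -0.79, and DGAT2, given above, is 1 of the 4. Their mean level ran from 7.86 to 8.35 in HE animals and from 8.61 to 9.59 in BE animals, without overlap. Leptin (LEP) was 6.44, 7.61, 7.27 and 7.06 in HE, against 9.26, 8.17, 9.13 and 9.84 in BE (difference -2.01 ± 0.60 SE, adjusted p = 0.0275). The lipase LIPE fell by 1.93 and GPD1, which makes glycerol phosphate, by 1.83. The call of LEP was lost in 5 of 8 fits without 1 animal (adjusted p up to 0.0963), and those of LIPE and GPD1 in 3 each (up to 0.079 and 0.0974). The adipokine ADIPOQ differed by -1.54 (adjusted p = 0.0817), the regulator PPARG by -0.79 (adjusted p = 0.22) and the fatty acid carrier FABP4, at 12.14 to 12.39 in HE and 11.93 to 12.65 in BE, by -0.07 (adjusted p = 0.826). The part of the adipocyte markers in the lower lipid genes was not tested.

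**Figure D3:**
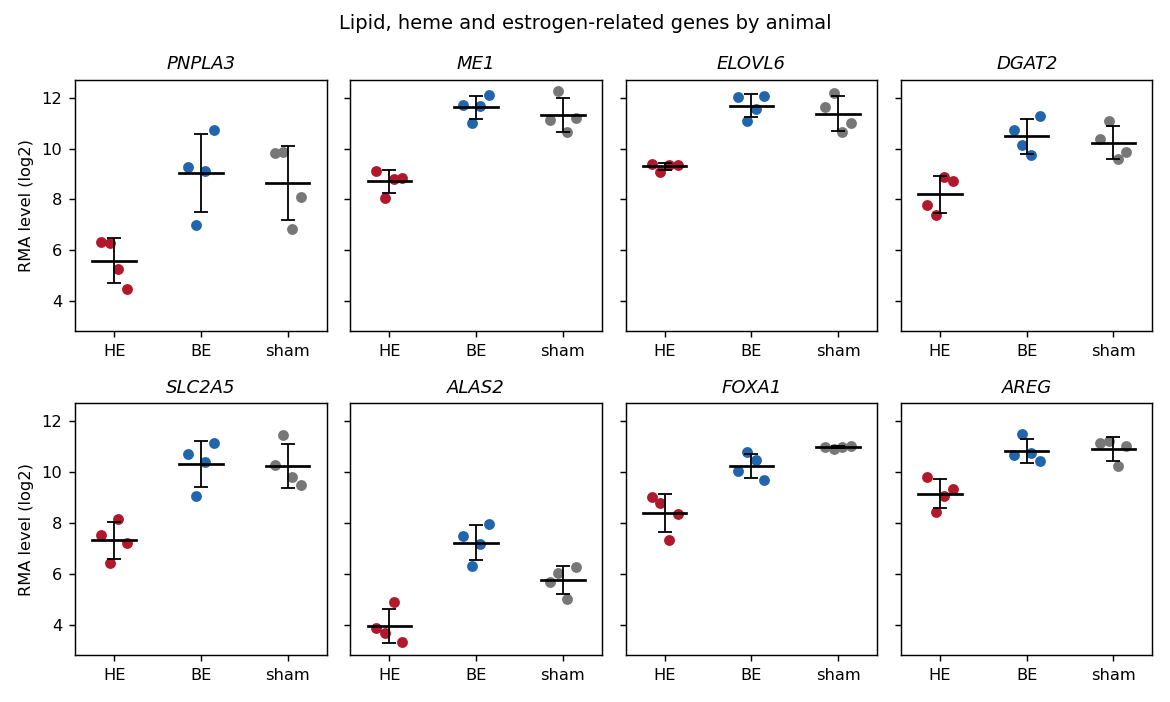
RMA level (log2, vertical axis) of 8 genes in each animal of HE, BE and sham (horizontal axis, 4 points per group), with the group mean as a line and the SD as an error bar. HE points lie below all BE points in every panel.

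Defence proteins found in milk and mucosa were often higher. Of 21 measured members of the innate defence and acute phase list 11 were higher and 1 lower, with a median of 1.25. Haptoglobin (gene symbol HP), which binds free hemoglobin, was 11.79, 12.74, 12.70 and 12.60 in HE animals, against 6.48, 6.96, 7.55 and 7.60 in BE animals (39.6-fold, adjusted p = 0.000395). PIGR, the receptor that carries immunoglobulin A across the epithelium, was 11.93, 12.30, 12.08 and 12.18 in HE, against 6.71, 7.04, 8.18 and 5.70 in BE (37.2-fold, adjusted p = 6.48e-05). LBP, which binds bacterial lipopolysaccharide, was 9.62, 10.23, 9.54 and 10.19 in HE, against 4.96, 6.23, 5.30 and 5.75 in BE (20.2-fold, adjusted p = 8.04e-05). No HE animal overlapped a BE animal in any of the 3. CCL28, the chemokine that draws cells making immunoglobulin A to mucosa, rose 10.7-fold, serum amyloid SAA2 9.30-fold, the peptidoglycan-binding PGLYRP1 5.34-fold, complement factor CFB 2.84-fold, S100A9 2.36-fold and the chemokine CXCL2 2.28-fold. SLPI, a protease inhibitor, fell by 1.08 (adjusted p = 0.0457). The call of SLPI was lost in 7 of 8 fits without 1 animal, that of S100A9 in 4 and that of CFB in 2. LTF, LPO and PIGR stand in other lists too. Leukocyte markers were measured beside these genes. Of 17 macrophage and leukocyte genes 0 were called, with mean levels of 7.99 to 8.51 in HE and 7.99 to 8.62 in BE. Of 12 lymphocyte genes 1, RASGRP1, was higher. In lists of this size both counts are near the shares of all genes, 11.9% called and 7.78% higher. Whether leukocyte content differed was not tested.

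Secretory pathway genes were called on the higher side alone. Of 31 genes of protein folding and export 8 were higher and 0 lower (median 0.28), and their mean level was 10.84 to 10.99 in HE and 10.42 to 10.52 in BE. SDF2L1, a partner of the chaperone BiP, was 9.05, 9.43, 9.26 and 9.42 in HE animals, against 7.81, 7.31, 7.23 and 7.34 in BE animals (3.66-fold, adjusted p = 0.000246). ERO1A, which drives disulfide formation, rose 3.43-fold, the co-chaperones DNAJB11 and DNAJC3 each 2.08-fold, CRELD2 1.94-fold, HYOU1 1.65-fold, the signal peptidase subunit SPCS3 1.58-fold and the translocon subunit SEC61A1 1.37-fold. Of these 8 calls, those of SDF2L1 and DNAJC3 were kept under all alternatives. The calls of CRELD2 and DNAJB11 were each lost in 6 of 8 fits without 1 animal, that of HYOU1 in 5, those of SPCS3 and SEC61A1 in 3 each and that of ERO1A in 1.

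Cell cycle genes were likewise called on the higher side alone. Of 28 measured, 6 were higher and 0 lower, with a median of 0.82, and their mean level was 8.51 to 8.95 in HE animals and 7.90 to 8.26 in BE animals. BIRC5, survivin, was 9.00, 8.10, 8.78 and 9.39 in HE, against 7.57, 7.20, 7.64 and 7.33 in BE (2.61-fold, adjusted p = 0.0093). The helicase subunits MCM5, MCM2 and MCM4 rose 2.42-fold, 2.24-fold and 2.12-fold, and the mitotic kinases AURKA and PLK1 2.36-fold and 2.29-fold. Of the 6 calls only that of BIRC5 was kept under all alternatives, and the count ran from 1 to 11. The calls of AURKA, MCM2 and MCM4 were each lost in 6 of 8 fits without 1 animal, that of PLK1 in 4 and that of MCM5 in 2. TOP2A, a topoisomerase of dividing cells, was 11.24, 10.43, 11.15 and 10.29 in HE, against 10.38, 10.28, 9.97 and 10.13 in BE (difference 0.59, adjusted p = 0.605), and cyclin CCNB1 differed by 0.86 (adjusted p = 0.445).

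Although both groups received estrogen, several genes of the estrogen response were lower in HE. Of 20 measured, 5 were lower and 1 higher (median -0.64). AREG, the EGF receptor ligand amphiregulin that carries the estrogen signal in the growing ducts of mice, was 9.79, 8.44, 9.06 and 9.35 in HE animals, against 10.68, 11.52, 10.74 and 10.42 in BE animals (difference -1.68 ± 0.54 SE, adjusted p = 0.0436), a call lost in 7 of 8 fits without 1 animal. FOXA1, the factor that opens chromatin for the estrogen receptor, was 9.04, 8.80, 7.34 and 8.36 in HE, against 10.03, 10.80, 10.47 and 9.69 in BE (-1.86 ± 0.37 SE, adjusted p = 0.0016). SULT1E1, which inactivates estrogen by sulfation, was 2.78, 2.30, 3.58 and 2.06 in HE, against 5.54, 4.59, 4.84 and 7.28 in BE (-2.88 ± 0.85 SE, adjusted p = 0.0263), a call lost in 4 of 8 fits without 1 animal with adjusted p up to 0.116. None of these overlapped between the groups. The other lower members were STC1 and the carbonic anhydrase CA12, which fell by 0.65, a call lost in 7 of 8 such fits. TFF3, a trefoil peptide of mucous surfaces, was the higher member, with 8.81, 10.51, 11.05 and 11.25 in HE animals against 7.13, 7.35, 8.69 and 7.66 in BE animals (6.50-fold, adjusted p = 0.00329). The estrogen receptor ESR1 lay low on the array, at 3.83, 3.83, 3.72 and 4.79 in HE and 5.00, 5.76, 5.25 and 4.09 in BE (-0.98, adjusted p = 0.0547), and the progesterone receptor PGR differed by -0.82 (adjusted p = 0.344).

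Growth factors and signalling genes gave single calls, in short lists beside 7.78% higher and 4.12% lower among all genes. EGF, the ligand of the EGF receptor, was 9.14, 10.26, 8.85 and 8.94 in HE animals, against 5.75, 6.48, 4.75 and 6.50 in BE animals (10.7-fold, adjusted p = 0.0105), so that of 5 measured members of its family EGF was higher and AREG lower. In the WNT list the secreted inhibitor SFRP1 fell by 0.62 and NDP, norrin, by 1.66, 2 of 12 measured. DRD2, the dopamine receptor on which both drugs act, was 5.97, 7.39, 7.78 and 7.36 in HE, against 3.83, 3.07, 4.91 and 4.01 in BE (9.00-fold, adjusted p = 0.00261), the 1 call among 9 dopamine and serotonin genes. Its BE values lay below the lower quartile of the arrays. DDC, which makes dopamine, differed by -0.32 (adjusted p = 0.706). In the growth hormone and IGF axis 0 of 10 genes were called, with IGF1 at -0.18 (adjusted p = 0.712) and GHR at -1.13 (adjusted p = 0.127).

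Luminal and basal genes of the epithelium were read as separate lists, which were not tested against each other. Of 18 luminal genes 4 were higher (MUC1, PIGR, EHF and CLDN3) and FOXA1 was lower, with a median of 0.16. The mean level of the luminal list ran from 10.30 to 10.70 in HE animals and from 9.32 to 10.10 in BE animals, without overlap. That mean includes the called genes, and no mean without them was taken. Among all genes 7.78% were higher and 4.12% lower. CLDN3, a claudin of tight junctions, was 9.60, 10.61, 10.17 and 10.63 in HE animals, against 7.77, 8.43, 8.40 and 7.67 in BE animals (4.54-fold, adjusted p = 0.000125). Of 12 basal and myoepithelial genes 0 were called (median -0.15), a count near the 11.9% called among all genes in a list of this size, and the smooth muscle actin ACTA2 was 11.97 to 12.15 in HE and 11.89 to 12.12 in BE.

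Stromal markers were called only on the lower side. Among 28 fibroblast and matrix genes 4 were lower and 0 higher (median -0.45), and the mean level was 9.95 to 10.34 in HE and 10.56 to 10.73 in BE. THBS2, the matrix protein thrombospondin 2, was 8.32, 8.64, 8.89 and 9.71 in HE animals, against 10.45, 11.06, 10.66 and 10.59 in BE animals (difference -1.80 ± 0.45 SE, adjusted p = 0.00884). Fibronectin (FN1) fell by 0.63, the collagens COL3A1 by 0.95 and COL6A3 by 0.42, each lost in 6 or 7 of 8 fits without 1 animal. Among 15 endothelial genes 3 were lower (the lymphatic receptor LYVE1 by 1.62, AQP1, and the transcription factor ERG by 0.81) and 0 higher, and the calls of AQP1, LYVE1 and ERG were lost in 6, 5 and 3 of 8 such fits. HAPLN1, a matrix link protein, differed by -1.96 (adjusted p = 0.0629). How far a different mix of epithelium, fat and stroma enters the gene differences above was not tested.

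Markers of other cell types gave single calls. Of 5 measured red cell genes 1 was lower and 0 higher (median -0.56), beside 4.12% lower among all genes. Their mean level ran from 5.78 to 6.60 in HE animals and from 6.65 to 7.40 in BE animals, without overlap. That mean includes the lower gene, and no mean without it was taken. The lower gene, ALAS2, which starts heme synthesis in erythroid cells, was 3.90, 3.67, 4.90 and 3.33 in HE animals, against 7.49, 6.33, 7.18 and 7.95 in BE animals (difference -3.29 ± 0.60 SE, adjusted p = 0.000599). Hemoglobin beta (HBB) differed by -0.56 (adjusted p = 0.2) and the hemoglobin chaperone AHSP by -0.88 (adjusted p = 0.22). For each of them the HE and BE values overlapped. Skeletal muscle and skin markers had 0 calls among 18 and 5 genes, beside 11.9% called among all genes. Of the 18 muscle genes 10 had a mean level below the arrays' lower quartiles. Among 8 melanocyte genes SOX10, which mammary epithelium also uses in mice, was 2.66-fold higher, and the mean level of the list ran from 5.31 to 6.27 in HE and from 4.74 to 6.97 in BE.

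The remaining lists held few calls, beside 7.78% higher and 4.12% lower among all genes. Of 23 interferon and antigen presentation genes 2 were higher, the nuclease ISG20 (2.48-fold) and the proteasome subunit PSMB8 (1.67-fold). That count is near the share of all genes. Of 18 genes of apoptosis and involution the death receptor FAS fell by 1.03 and clusterin (CLU) by 1.51, and of 15 immediate early genes the matrix protein CYR61 fell by 1.40. Of 8 fits without 1 animal, the call was lost in 6 for ISG20, 4 for CYR61, 2 for CLU and 1 each for PSMB8 and FAS. Cytosolic ribosome genes had 0 calls among 58 (median 0.05), and oxidative phosphorylation genes 1 among 50, ATP5I (1.77-fold, list median 0.24), a call lost in 3 such fits. Of 8 tight junction genes CLDN3 was higher and 0 lower (median 0.67), and of 18 hormone receptors DRD2 was higher and 0 lower (median -0.23). The chart of gene lists sets these shares beside those of all genes.

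**Figure D4:**
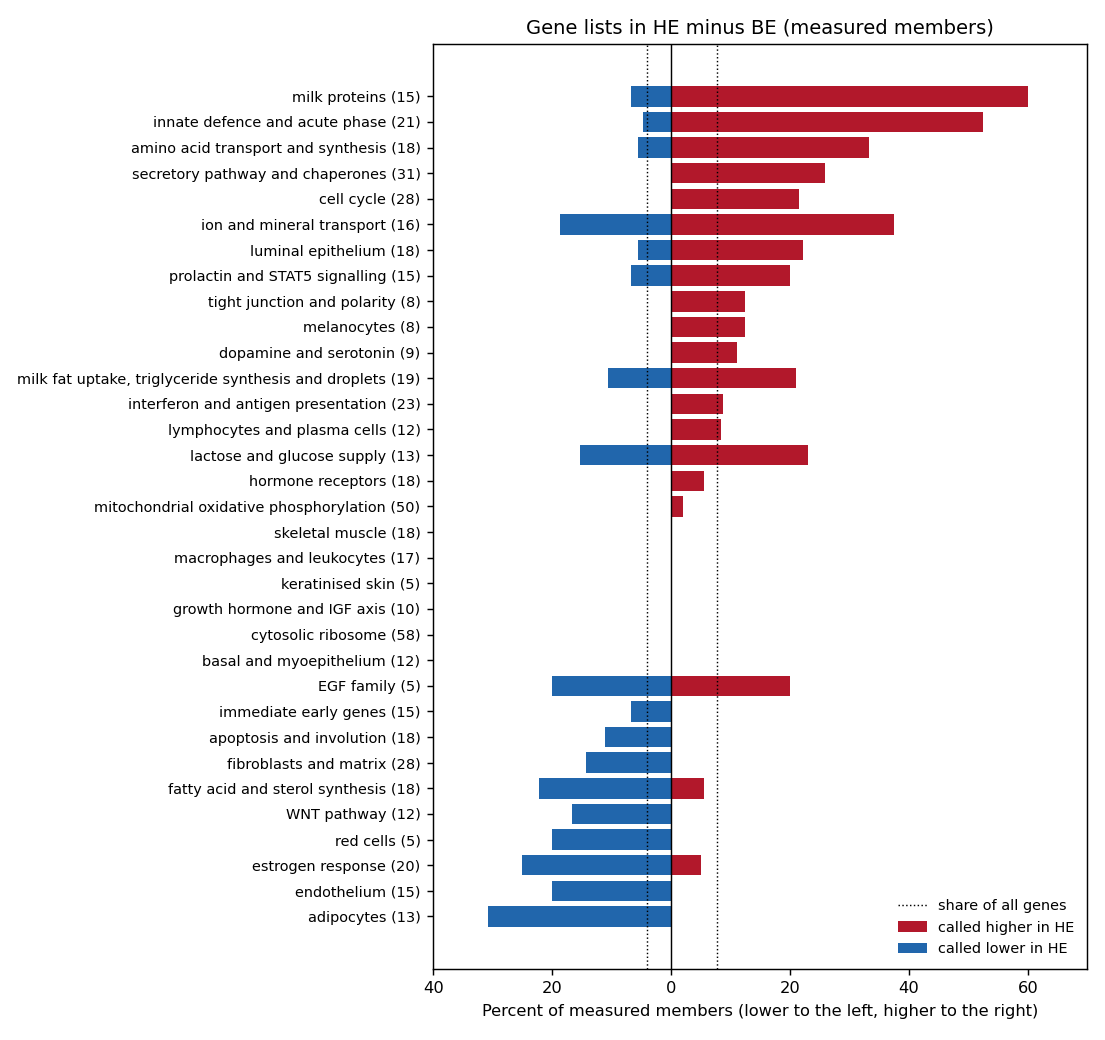
Percent of the measured members of each of 33 gene lists (vertical axis, number measured in brackets) that were called higher (red, to the right) or lower (blue, to the left) in HE than in BE, with dotted lines at the shares of all genes, 7.78% higher and 4.12% lower. Milk proteins and innate defence have the highest shares of higher members and adipocytes the highest share of lower members.

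The largest differences outside these lists came from varied families. Higher in HE were the chloride channel regulator CLCA1 (27.9-fold), the platelet chemokine PPBP (20.4-fold), the fatty acid binding protein FABP7 (20.2-fold) and the odorant-binding lipocalin OBP (6.57-fold), along with SL44-1 (46.0-fold) and C7H6orf52 (33.7-fold). Lower were the secretory protein CRISP2 (difference -3.01), myocilin (MYOC, -2.90), the paraoxonase PON3 (-2.71), the phosphatase inhibitor PPP1R1A (-2.51), the ferritin receptor SCARA5 (-2.51), the protease MMP7 (-2.32) and angiotensinogen (AGT, -2.26). The call of SCARA5 was lost in 3 of 8 fits without 1 animal and that of MYOC in 1. Of the 15 genes raised most, 9 had a BE mean under the lowest of the arrays' lower quartiles, and of the 15 lowered most, 4 had an HE mean under it. BE means of other raised genes, among them LPO, GPAM, LBP and MSTN, also lay under that quartile. Detection calls were not analysed here, so the size of those folds is uncertain. Among all called genes named in the text, HE and BE values overlapped for JAK2, PON3, LYVE1, CYR61, COL3A1, FN1, CFB, CRELD2 and AQP5. Of the called genes named by rule, 24 had other probe sets, and in 23 of them all had the same sign, in 15 all with a call.

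The sham pigs, with ovaries and without drugs, lay between the groups for most of the called genes. Their mean was between those of HE and BE for 433 of the 495 higher genes (87.47%) and 221 of the 262 lower genes (84.35%). It was nearer to BE for 275 (55.56%) and 177 (67.56%). The median difference from sham was 0.54 in HE and -0.47 in BE over the higher genes, and -0.64 in HE and 0.35 in BE over the lower genes. No test was made of these shares. The genes were picked for a difference between HE and BE, which by itself makes a sham mean between them more likely. The same shares over all genes were not taken, so these shares do not show that intact glands were intermediate.

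The same drug difference was then read where the pigs also had progesterone (HEP minus BEP) and where they had no steroid (H minus B), which share no animals with HE and BE. In HEP minus BEP 88 genes were called (1.38%), 67 higher (1.05%) and 21 lower (0.330%), and in H minus B 5 were called (0.0786%), all higher. Of the 495 genes raised in HE, 481 (97.17%) had a positive difference in HEP minus BEP, with a median of 0.57, and 296 (59.8%) in H minus B, with a median of 0.08. Of the 262 lowered genes 246 (93.89%) and 138 (52.67%) had negative differences, with medians of -0.55 and -0.04. Over all genes the sign was shared by 77.12% with HEP minus BEP and 48.63% with H minus B. The higher calls shared with HEP minus BEP numbered 54, which is 10.91% of the 495 and 80.6% of the 67, and the lower calls 19, which is 7.25% of the 262 and 90.48% of the 21.

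Tests of the difference itself gave a result for estrogen. The haloperidol difference with estrogen was unlike that without it in 150 genes (2.36%), 107 with a more positive (1.68%) and 43 with a more negative difference (0.676%) under estrogen, and in 430 probe sets (2.07%). This count was sensitive to single animals: without H animal D it was 47 probe sets, without HE animal C 53, without HE animal B 56, without BE animal B 70 and without HE animal A 693. It lay between 78 and 275 without any 1 of BE animals A and D, HE animal D, B animals A, B and D, and H animals B and C. Without H animal A it was 321, without B animal C 428 and without BE animal C 595. Between HE minus BE and HEP minus BEP, 0 genes (0.00%) and 2 probe sets with no symbol (0.00962%) differed by limma. An unadjusted p under 0.05 was found in 824 probe sets, a smaller share than chance alone would give on average. The alternatives gave between 0 and 21 probe sets. The larger number of calls without progesterone was therefore not shown gene by gene to be a difference between the steroid treatments.

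Named genes that differed by estrogen included secreted, metabolic and matrix genes. The glutathione peroxidase GPX2 averaged 8.90 ± 0.84 in HE and 5.32 ± 0.47 in BE, and 5.37 ± 0.59 in H and 5.93 ± 1.12 in B (SD), so that the difference was larger by 4.15 ± 0.75 SE with estrogen (adjusted p = 0.00697). FABP7 averaged 7.79 ± 0.83 in HE and 3.46 ± 0.50 in BE, and 3.19 ± 0.38 in H and 3.95 ± 0.50 in B (5.10 ± 1.08 SE, adjusted p = 0.0212). SHMT1 averaged 8.52 ± 0.33 in HE and 6.46 ± 0.30 in BE, and 8.42 ± 0.13 in H and 7.91 ± 0.42 in B (1.56 ± 0.32 SE, adjusted p = 0.0162). For SHMT1 the BE mean was the lowest of the 4, and for GPX2 and FABP7 the HE mean stood above the other 3. These 3 calls held under every alternative run. Of the STAT5 genes, STAT5B differed by 1.73 ± 0.48 SE (adjusted p = 0.0497), a call lost in 14 of 16 fits without 1 animal, while STAT5A did not pass (adjusted p = 0.09).

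WAP, CSN1S1 and SLC34A2 did not pass the test of a difference by estrogen. WAP averaged 13.01 ± 0.23 in HE and 6.50 ± 1.58 in BE, and 10.32 ± 2.68 in H and 5.38 ± 3.25 in B (difference of differences 1.58 ± 2.13 SE, adjusted p = 0.725). CSN1S1 averaged 12.52 ± 0.07 in HE and 9.36 ± 1.70 in BE, and 11.79 ± 0.56 in H and 6.84 ± 3.67 in B (-1.80 ± 1.83 SE, adjusted p = 0.623). SLC34A2 was called in both, with 11.55 ± 0.17 in HE and 5.23 ± 0.45 in BE, and 9.99 ± 0.46 in H and 5.36 ± 1.52 in B (1.69 ± 1.17 SE, adjusted p = 0.438). With standard errors of this size, differences of several fold between the steroid treatments could have gone undetected in WAP and CSN1S1. The HE means of both also lay high on a scale that ended at 13.74. Whether this limited their HE minus BE difference was not tested. Of the list medians, that of milk proteins was 3.16 in HE minus BE, 2.67 in HEP minus BEP and 2.91 in H minus B, while that of the cell cycle was 0.82, 1.03 and 0.21 and that of adipocytes -0.79, -1.08 and 0.26.

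**Figure D5:**
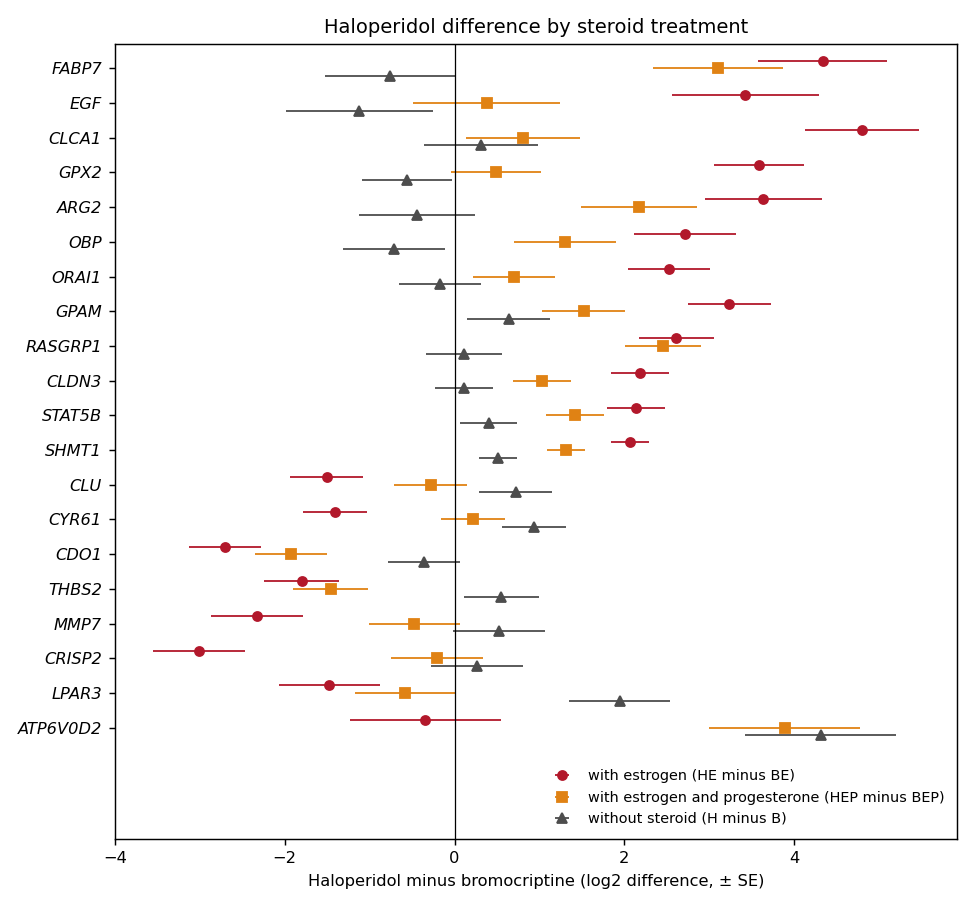
Haloperidol minus bromocriptine difference (log2 ± SE, horizontal axis) of the 20 genes named by rule whose difference was unlike with and without estrogen (vertical axis): circles with estrogen (HE minus BE), squares with estrogen and progesterone (HEP minus BEP), triangles without steroid (H minus B). For GPX2 the values are 3.58, 0.49 and -0.56, and for ATP6V0D2, a proton pump subunit, -0.35, 3.89 and 4.31. The call of a difference by estrogen was lost in 15 of 16 fits without 1 animal for ATP6V0D2 and in 0 for GPX2.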

How the data were processed

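Per the labels' protocols, total RNA of each gland was reverse transcribed with oligo-dT and labelled with biotin. The deposited values are RMA probe set levels, per the submitters' processing notes. For the version of RMA and the base of the logarithm, the labels and headers used here give nothing. The authors' values were read as log2 and used without further normalization. A gene was represented by whichever of its probe sets had the highest mean level. Of 20792 probe sets 9149 had 1 symbol, 178 several and 11465 none here.

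A limma 3.58.1 model (R 4.3.3, statmod 1.5.0) with 1 mean for each of 9 groups was fitted to 36 arrays. P-values were two-sided, with Benjamini-Hochberg adjustment across the 20792 probe sets of each comparison. The threshold for a call was an adjusted p of 0.05. Scripts were tested on simulated data. Nothing in the labels links animals of different groups, and arrays were treated as separate animals. Differences are given ± SE with 4 animals in each group, and the number of arrays limits the precision.

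The rule for named genes takes the 15 largest called differences in each direction, up to 4 called members of each of 33 gene lists, the 8 largest of each difference between drug effects, and 23 fixed genes, of which 16 were measured. Other called list members and some uncalled markers were named after their values were seen. The comparison, lists and members were chosen with earlier results of these data known. In 8 lists under 50% of the genes were measured. Alternatives were filtering dim probe sets, rescaling, robust moderation, array weights, a letter block, 1 probe set per gene, fewer groups, and leaving out each animal. Figures used matplotlib 3.10.9. Promoter sequences were not analysed here.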

Additional observations from a re-analysis of the deposited data

Results flagged for a closer look

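A test for 1 animal lying far from the other 3 of its group was made for the genes named here in HE and in BE, 302 tests with 15 hits. Chance flags about 1 in 20. Among HE animals, A was lowest for haptoglobin (HP) at 11.79, GPX2 at 7.66, DKC1 at 8.57 and MFGE8 at 11.56. Animal B was lowest for ELOVL6 at 9.09 and highest for DNAJB11 at 11.78 and LPO at 8.12. Animal D was highest for ESR1 at 4.79 and SLC2A8 at 8.08. Among BE animals, C was lowest for CDO1 at 10.53 and ACSL3 at 9.00 and highest for SLC2A1 at 11.29. Animal A was highest for AURKA at 7.31, B lowest for FARSA at 8.68 and D lowest for ATP2C2 at 5.98.

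The haloperidol difference was unlike with and without estrogen, by limma's test of the difference itself, for 32 of the genes named here, given as (HE minus BE) minus (H minus B) on the log2 scale. More positive with estrogen were FABP7 (5.10), EGF (4.55), CLCA1 (4.48), GPX2 (4.15), ARG2 (4.08), OBP (3.43), CKMT1A (3.26), ORAI1 (2.70), GPAM (2.60), RASGRP1 (2.50), LPO (2.33), NPM3 (2.28), ATP2C2 (2.21), CLDN3 (2.07), BRCA1 (1.89), CTPS1 (1.81), STAT5B (1.73), MRPS17 (1.71), FARSA (1.68), MRPL18 (1.61), SHMT1 (1.56), LYAR (1.42), NOP2 (1.30) and MARS (0.97). More negative were ATP6V0D2 (-4.66), the lysophosphatidic acid receptor LPAR3 (-3.42), CRISP2 (-3.27), MMP7 (-2.85), THBS2 (-2.35), CDO1 (-2.35), CYR61 (-2.34) and CLU (-2.23). For ATP6V0D2 and LPAR3 the HE minus BE difference itself was not called.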

How the results depend on the processing

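Of the 127 genes named here and called in HE minus BE, 74 kept the call under all alternatives and 53 lost it under at least 1. Of 32 genes whose drug difference was unlike with and without estrogen, 5 kept that call (GPX2, FABP7, SHMT1, CKMT1A and NPM3). Numbers of probe sets, main values first, were 2184 called, 1135 higher and 1049 lower. Without dim probe sets they were 1454, 668 and 786, with array weights 3993, 1913 and 2080, and with 1 probe set per gene, where fewer features were tested, 869, 568 and 301. Leaving out 1 animal gave 1300 to 2689 called, 678 to 1366 higher and 622 to 1323 lower. The letter of the titles as a replicate block gave 2315, or 2309 as a random block. Same-letter deviations of HE and BE animals correlated by 0.141, 0.0272, -0.186 and -0.0736, so the letters were not taken as pairs. For the difference by estrogen (430) array weights gave 2033, 1 probe set per gene 226, only the 4 groups 982, the replicate block 529 and leaving out BP animal A, chosen after seeing the data because it stands apart from its group, 1184. Leaving out 1 animal gave 47 to 693. For the difference by progesterone (2) the values were 1 without dim probe sets, 21 with array weights, 0 with 1 probe set per gene, 1 with only the 4 groups and 0 to 6 without 1 animal. The cause of these shifts was not tested. Signs turned only for uncalled genes near 0: with 1 animal left out ATP6V0D2 ran from -0.73 to 0.0071, FABP4 from -0.22 to 0.025, KRT18 from -0.011 to 0.296 and ACTA2 from -0.022 to 0.053, and with array weights ACTA2 was -0.010.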

Other observations

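Genes that build ribosomes and charge tRNAs were among those called higher in HE, beside 0 calls among 58 cytosolic ribosome genes. These 3 sets were assembled after the values were seen, so their counts are a description, beside 7.78% higher and 4.12% lower over all 6360 genes. Of 72 measured genes of ribosome assembly in the nucleolus 24 were higher and 0 lower in HE than in BE, with a median of 0.54, beside 0.47 in HEP minus BEP and -0.10 in H minus B. NPM3, a nucleolar chaperone, was 10.09, 9.97, 10.13 and 10.57 in HE animals, against 8.41, 7.82, 8.24 and 8.29 in BE animals (4.00-fold, adjusted p = 0.000246). LYAR, DKC1 and the RNA methyltransferase NOP2 were 2.69-fold, 2.47-fold and 2.12-fold higher. Of 58 mitochondrial ribosome genes 16 were higher and 0 lower (median 0.49), among them MRPS17 (2.11-fold) and MRPL18 (1.85-fold), and of 21 tRNA synthetases 6 were higher and 0 lower (median 0.41), among them FARSA (2.10-fold) and MARS (1.71-fold). The call of MRPL18 was lost in 5 of 8 fits without 1 animal, that of FARSA in 3 and that of MRPS17 in 1. Of the 3 sets, 9, 7 and 3 genes had a more positive haloperidol difference with estrogen than without it, beside 107 of all 6360 genes (1.68%). In H minus B the medians of the mitochondrial ribosome and tRNA synthetase sets were -0.16 and 0.05. Among named members, NPM3 kept its call of a difference by estrogen in all 16 fits without 1 animal. The call was lost in 12 each for FARSA and MARS, 9 for NOP2, 7 each for LYAR and MRPS17 and 5 for MRPL18.

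Some further genes were picked for their size after their values were seen. SRM, which makes spermidine from putrescine, averaged 11.47 ± 0.45 in HE and 8.59 ± 0.17 in BE (SD, 4 animals each; 7.38-fold, adjusted p = 2.24e-06). The mitochondrial creatine kinase CKMT1A was 8.12, 9.98, 9.91 and 10.30 in HE, against 5.79, 6.51, 6.28 and 5.88 in BE (difference 3.46 ± 0.40 SE, adjusted p = 2.24e-06). Myostatin (MSTN), known as a brake on muscle growth, was 8.88, 9.38, 7.90 and 7.07 in HE, against 4.18, 4.06, 4.91 and 3.85 in BE (16.6-fold, adjusted p = 0.00848). Of 18 skeletal muscle genes 0 were called, beside 11.9% of all genes. A mean level below the arrays' lower quartiles was found in 10 of the 18, which leaves little room for calls. The membrane mucin MUC4 was higher by 3.58 on the log2 scale, a call lost in 6 of 8 fits without 1 animal. CTPS1, which makes the nucleotide CTP, rose 4.29-fold, ABCG2, the transporter that moves riboflavin and drugs into milk, 2.99-fold and the DNA repair gene BRCA1 2.79-fold.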
